A study of Mus musculus with 6 samples.

Results

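Estrogen receptor alpha (ERα) sites were described around 4 genes that carry signals of embryo implantation in the uterus, Lif, Ihh, Wnt4 and Bmp2. A site was taken where a deposited peak had its midpoint in a fixed window of the mouse genome build mm9, meant to hold the gene and about 100 kb on each side. The windows were chr11:4057000-4273000 for Lif, chr1:74840000-75100000 for Ihh, chr4:136733000-136956000 for Wnt4 and chr2:133277000-133488000 for Bmp2. Their edges were set from gene positions and not from the peaks, but were not checked against gene models of this build. They held 142 of the 154923 peaks of the 6 deposited lists. Peaks that overlapped by at least 1 bp were joined, which gave 59 sites in the windows among 65146 merged regions in all.

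The peaks came from chromatin immunoprecipitation with an ERα antibody on uteri of ovariectomized C57BL/6J female mice aged 12 weeks, which have lost their ovarian source of estrogen. The mice were wild type or carried the ERalpha AF-2 mutant allele (AF2ERKI, called mutant here). AF-2, in the ligand-binding domain, is where the estrogen-bound receptor recruits coactivators. Wild-type mice were littermates, and each genotype received 2 mg/kg fulvestrant (ICI182780, ICI), 2 mg/kg tamoxifen, or 50 µl of the DMSO vehicle by intraperitoneal injection 1 h before collection. Each of these 6 groups was 1 library from the pooled uteri of 6 mice, so no spread between mice or libraries is known and no difference was tested. An unexplained code, E1h, is part of every sample title, so an estrogen given beside the named treatments cannot be told from the labels. Peak positions hold no expression values, so the labelled tissue could not be checked against marker genes, and epithelium, stroma and muscle were not separated. The lists also hold no peak heights, and read depth is unknown: a site without a peak in a list was not called there, which does not show that the receptor was absent.

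In the mouse, a late rise of estrogen makes the uterine glands secrete LIF, a cytokine of the interleukin-6 family that acts on the luminal epithelium through its receptor and STAT3. Indian hedgehog, the product of Ihh, is made in the epithelium under progesterone and signals to the stroma through Patched and NR2F2. BMP2 and WNT4 are secreted ligands of the stroma that act in decidualization, the change of stromal cells around the embryo, and WNT4 is known to act downstream of BMP2 there. ERα binds DNA at estrogen response elements, which are made of a pair of inverted half-sites, or through other bound factors.

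The inner interval of each window, left after 100 kb is taken from each end, gives the approximate place of the gene. All 4 genes were matched by symbol in the RefSeq gene table, which is of another build, GRCm38, so its coordinates were not set against the peaks. Its gene lengths were 14.9 kb for Lif, 21.9 kb for Wnt4 and 10.7 kb for Bmp2, close to the inner intervals of 16, 23 and 11 kb. For Ihh the gene was 6.36 kb long and the interval 60 kb, so the interval does not fix where in it Ihh lies. The peaks could not be given as exonic, intronic or in a promoter for the same reason. In the table's gene order the nearest coding genes on either side were Osm and Hormad2 for Lif, Cfap65 and Nhej1 for Ihh, Zbtb40 and Cdc42 for Wnt4, and Fermt1 and Hao1 for Bmp2. A site in a window may therefore belong to a neighbour.

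Promoters of Lif, Ihh and Wnt4 were present in RefSeq's table for GRCm38.p6. Those of Wnt4 and Lif are shown since sites lay at unlike distances from the rounded lower edges of their intervals, on the side of each gene's start. A site called with both ligands in both genotypes began 44 bp inside the edge for Wnt4. The first site in the Lif interval began 4826 bp inside. The gene starts themselves were not placed in mm9, so neither distance is one to a promoter. Each sequence is the 250 bases before the start on the forward strand, for Wnt4 at chr4:137277385-137277634 and for Lif at chr11:4257318-4257567 of GRCm38.p6. Capitals would mark the half-site letters GGTCA or TGACC, searched on both strands. There were 0 matches in either, and 0 in the promoter of Ihh.
Wnt4: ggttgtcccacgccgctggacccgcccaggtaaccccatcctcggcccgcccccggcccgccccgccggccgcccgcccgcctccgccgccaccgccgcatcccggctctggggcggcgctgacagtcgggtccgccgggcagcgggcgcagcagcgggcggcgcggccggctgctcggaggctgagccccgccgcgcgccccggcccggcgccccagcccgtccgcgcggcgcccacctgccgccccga
Lif: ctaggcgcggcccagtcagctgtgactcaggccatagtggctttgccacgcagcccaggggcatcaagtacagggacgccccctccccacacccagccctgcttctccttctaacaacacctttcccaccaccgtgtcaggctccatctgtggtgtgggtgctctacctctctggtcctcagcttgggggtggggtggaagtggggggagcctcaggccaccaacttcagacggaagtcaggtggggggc
Of all 32841 promoters of this length, 35.2% held at least 1 half-site. The share of G and C was 85.2% in the Wnt4 promoter, 63.6% in that of Lif and 72.0% in that of Ihh. Whether the Wnt4 site overlaps these bases is not known, and the sequences under the peaks were not read here.

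Around Wnt4, ERα peaks were denser with each ligand in each genotype than over chromosomes 1 to 19 and X of the same library, by 3.56 to 6.02 times, with exact 95% counting intervals (Poisson) that all lay above 1. Of the 16 pairs of a window and a ligand library, 15 had a ratio above 1, but in only 7 did the interval lie above 1: the 4 around Wnt4, wild-type tamoxifen and mutant ICI around Lif, and wild-type ICI around Ihh. In the other 9, among them all 4 around Bmp2, the interval held 1. Outside the Wnt4 window, this split changed with windows 50 kb shorter or longer at each end. With the shorter windows, all 4 intervals around Lif lay above 1, and that of wild-type ICI around Ihh held 1. These intervals cover counting error only and take peaks as independent of each other. The pairs are not independent either, since the ligand lists share sites in each window. Of windows of the same length laid end to end along the genome, gene deserts included, 14.3% held at least as many mutant ICI peaks as the Lif window. The share was 9.44% for wild-type tamoxifen around Lif and 9.01% for wild-type ICI around Ihh. Around Wnt4 the shares ran from 0.762 to 6.21%. The wild-type lists held 25 peaks with ICI, 35 with tamoxifen and 2 with vehicle in the 4 windows. The mutant lists held 41 with ICI, 31 with tamoxifen and 8 with vehicle. In the wild type the order of the ligands was thus tamoxifen above ICI, and in the mutant ICI above tamoxifen. The whole lists had the same order, with 26482 peaks for wild-type ICI and 37327 for wild-type tamoxifen, against 45837 and 36538 for the mutant lists. The ratio under 1 was that of wild-type tamoxifen around Ihh, at 0.815 (0.168 to 2.38). With windows 50 kb longer at each end it was 1.18.

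**Figure D1:**
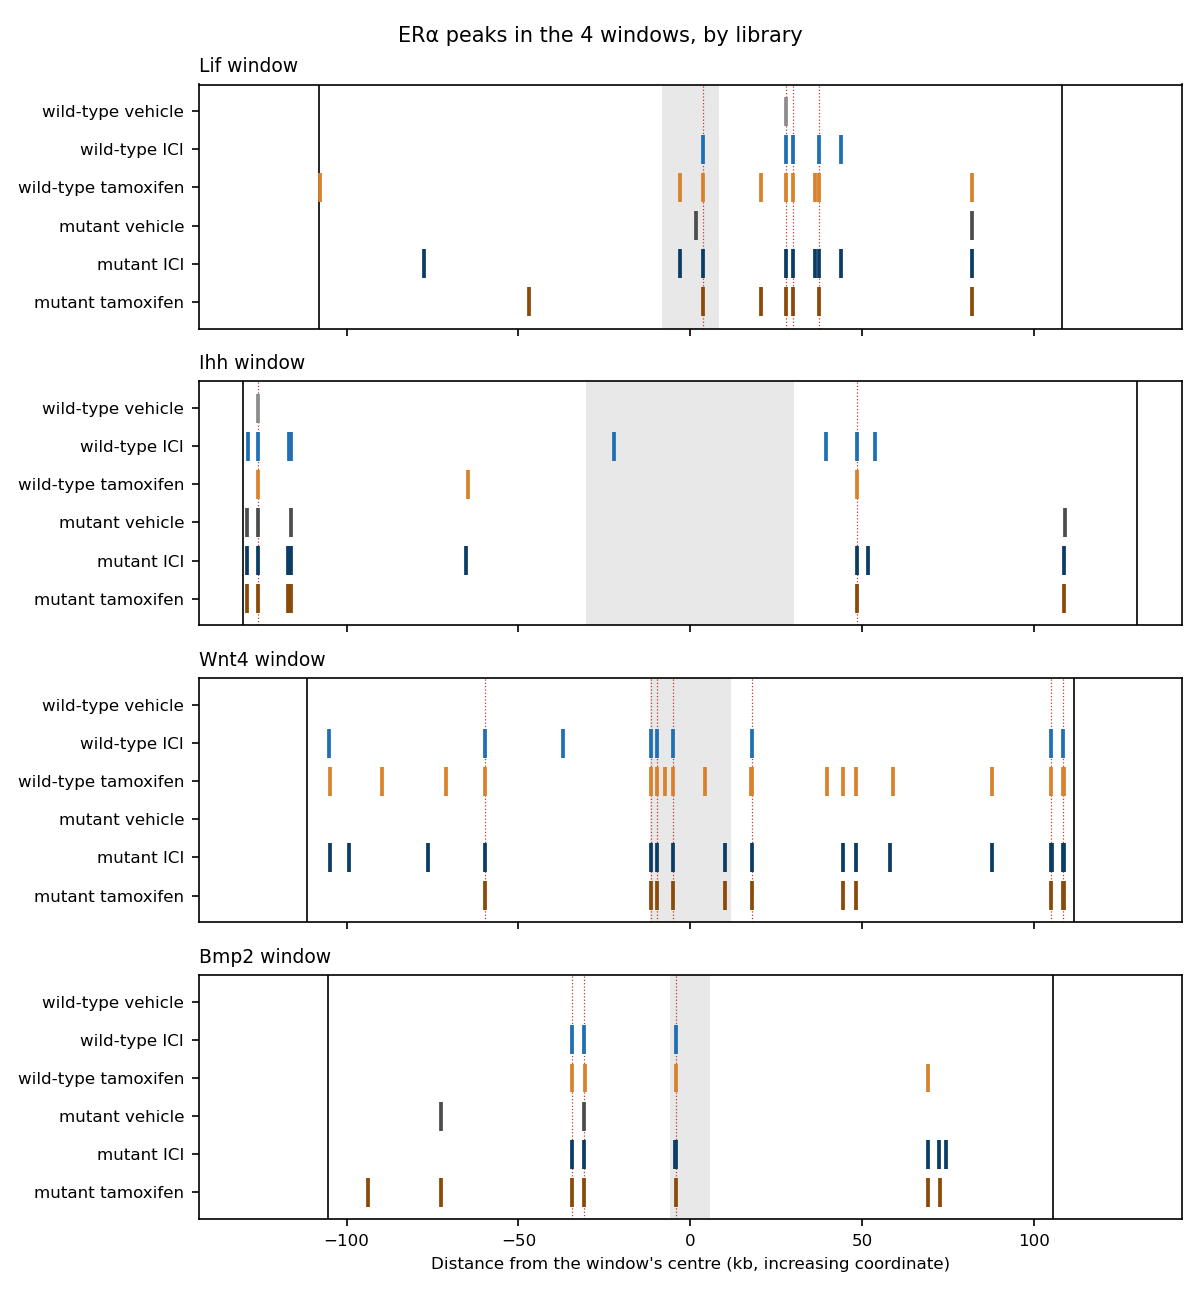
Position of every ERα peak in the 4 windows, as distance in kb from the centre of each window; each row is 1 library and each tick 1 peak, black lines are the window ends, grey marks the inner interval, and dotted red lines mark sites called in all 4 ligand lists. The Wnt4 window has no vehicle peak, and the Ihh window has 4 sites close together at its lower end.

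For the 4 windows together, no difference from the genome in the mix of sites was seen beyond counting error. Of the 59 sites, 25 (42.4%) had a wild-type ICI peak, against 40.7% of all merged regions, and 35 (59.3%) a wild-type tamoxifen peak, against 57.3%. With the mutant the counts were 41 sites (69.5%) for ICI, against 70.3%, and 31 (52.5%) for tamoxifen, against 56.1%. Wild-type vehicle had a peak at 2 sites (3.39%), against 5.7% of regions, and mutant vehicle at 8 (13.6%), against 7.72%. The exact (Clopper-Pearson) 95% intervals of all 6 shares, which cover counting error only, held the genome's share. With 59 sites they were wide, that of mutant vehicle running from 6.04 to 25%, so they do not show the shares to be the same. Mutant vehicle peaks lay at 2 of 13 Lif sites, 4 of 12 Ihh sites, 0 of 25 Wnt4 sites and 2 of 9 Bmp2 sites.

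All 4 ligand lists shared 16 sites (27.1%, interval 16.4 to 40.3), against 23.2% of regions. A vehicle peak was present at 9 sites, against 11.7% of regions. Of these, 8 also had a ligand peak and 1 had none, against 2.45% of regions. A peak in a single list made up 25 sites (42.4%), against 35.6%. Mutant ICI and wild-type tamoxifen gave 9 of these each, wild-type ICI 4, mutant tamoxifen 2, mutant vehicle 1 and wild-type vehicle 0. Of the 23194 single-list regions over the genome, these lists gave 8153, 6153, 4091, 3295, 1198 and 304 in the same order. Another site lay within 500 bp of 5 of the 25 in the windows, against 17.2% of single-list regions over the genome.

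Between genotypes, 15 sites had a mutant but no wild-type ligand peak, against 29.0% of regions, and 13 the reverse, against 19.2%. This order turned with windows 50 kb shorter at each end, to 6 and 10 sites, and was a tie of 16 and 16 when an overlap of 100 bp was asked for. Sites called with both ligands in 1 genotype and with neither in the other were few. There were 3 such sites for the mutant, against 10.6% of regions, and 0 of 59 for the wild type (interval up to 6.06%), against 3.03%. Between ligands, the wild type had 8 sites with ICI and without tamoxifen, against 11.2%, and 18 with tamoxifen and without ICI, against 27.9%. The mutant had 14 with ICI and without tamoxifen, against 22.3%, and 4 the other way, against 8.01%. As shares of the 59 sites, all of these had intervals that held the genome's share.

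**Figure D2:**
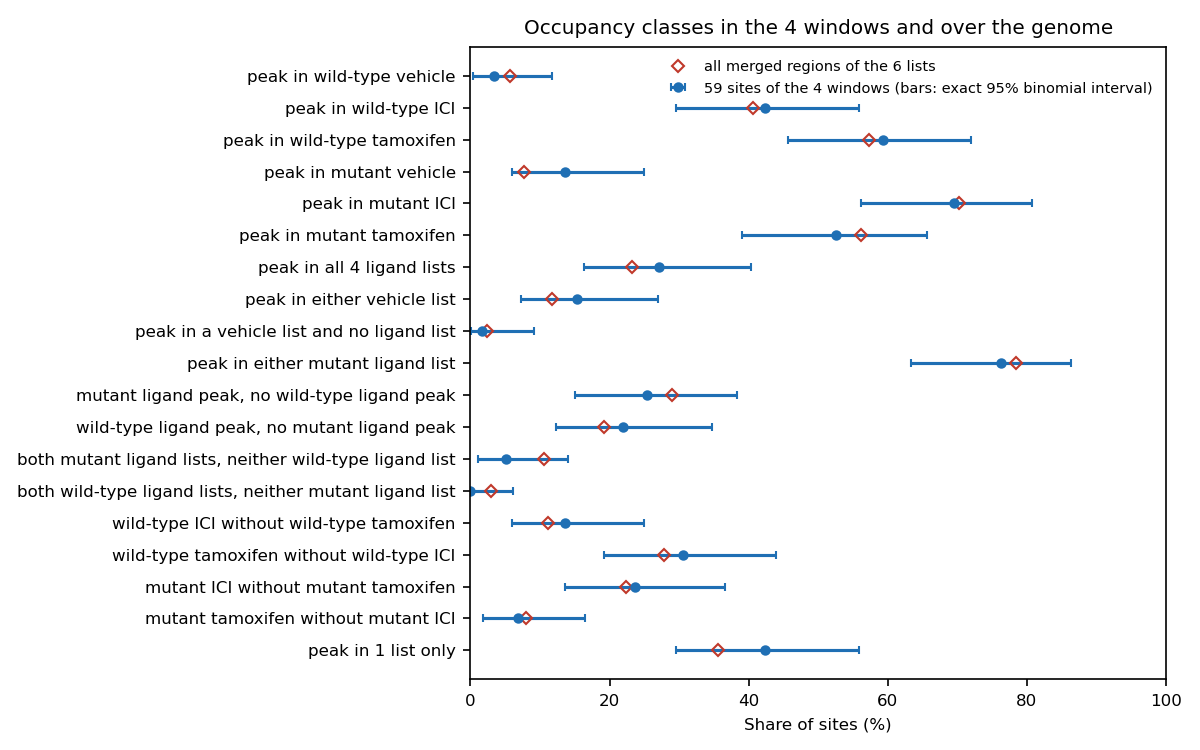
Share of sites in each occupancy class, in percent, for the 59 sites of the 4 windows (blue, with exact 95% binomial intervals) and for all 65146 merged regions (red diamonds). Every blue interval spans its red diamond.

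Lif had 13 sites, and most of those shared between ligands and genotypes lay on the upper-coordinate side of the gene's interval, toward Hormad2 in the gene order. The Lif window held 5 peaks with wild-type ICI and 9 with wild-type tamoxifen, 9 with mutant ICI and 7 with mutant tamoxifen, 1 with wild-type vehicle and 2 with mutant vehicle. At the genome's density the same libraries would have held 2.17, 3.06, 3.75, 2.99, 0.304 and 0.412 peaks in the same order. The ratio to genome density was 2.94 (1.35 to 5.59) for wild-type tamoxifen and 2.40 (1.10 to 4.55) for mutant ICI. The intervals of the other 4 libraries held 1, as for wild-type ICI at 2.30 (0.748 to 5.38) and mutant vehicle at 4.86 (0.588 to 17.5), which rests on 2 peaks.

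The 4 Lif sites called in all 4 ligand lists were chr11:4168614-4168832, inside the gene's interval, and chr11:4192687-4192907, chr11:4194781-4195016 and chr11:4202421-4202627 above it. The second of these was also the only Lif site with a wild-type vehicle peak. The 3 above the interval form, with 3 neighbours, a stretch of 6 sites over 23.3 kb, chr11:4185473-4208809, in which wild-type tamoxifen and mutant ICI had 5 peaks each, and wild-type ICI and mutant tamoxifen 4 each. The neighbours were called in pairs of lists: chr11:4185473-4185722 with tamoxifen in both genotypes, chr11:4208576-4208809 with ICI in both, and chr11:4201147-4201377 with wild-type tamoxifen and mutant ICI.

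Inside the Lif interval 2 further sites were called. The first, chr11:4161826-4162071, had peaks with wild-type tamoxifen and mutant ICI. The other, chr11:4166573-4166772, had a mutant vehicle peak alone, and is the single site of the 4 windows called under vehicle and with no ligand. At chr11:4246840-4247088 mutant vehicle had a peak together with mutant ICI and with tamoxifen in both genotypes. Wild-type ICI lacked a peak there, as at 5 sites of the windows called in the other 3 ligand lists, against 11.7% of regions. Below the interval only 3 sites were called, each in 1 list.

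Ihh had 12 sites, and its window was the one in which wild-type ICI had more peaks than wild-type tamoxifen. Wild-type ICI had 8 peaks, wild-type tamoxifen 3, mutant ICI 8 and mutant tamoxifen 6, against 2.61, 3.68, 4.52 and 3.60 at genome density. The vehicle lists gave 1 wild-type and 4 mutant peaks, against 0.366 and 0.496. The ratio to genome density was 3.06 (1.32 to 6.04) for wild-type ICI and 8.07 (2.20 to 20.7) for mutant vehicle, and the intervals of the other 4 libraries held 1. Of all windows of the same length laid end to end along the genome, 1.56% had at least 4 mutant vehicle peaks and 46.9% at least 3 wild-type tamoxifen peaks. These windows take in gene deserts and are a description only.

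Most of these Ihh peaks came from 4 sites in 12.9 kb at the lower end of the window, chr1:74841084-74853952, which ended 86 kb below the gene's interval. In this stretch wild-type ICI, mutant ICI and mutant tamoxifen each had all 4 sites, mutant vehicle 3, and wild-type tamoxifen and wild-type vehicle 1 each. The site chr1:74844008-74844358 was called in all 6 libraries, 1 of 459 such regions in the genome. The other sites, chr1:74841084-74841304, chr1:74852983-74853398 and chr1:74853698-74853952, lacked a wild-type tamoxifen peak and had the other 3 ligand peaks. All 3 sites of this class in the windows were these, against 2.49% of regions. At chr1:74852983-74853398, however, the wild-type ICI peak began at 74853199, above the end of the mutant ICI peak at 74853182. It was joined only through the edge of the mutant tamoxifen peak, which ended at 74853202, so a 100 bp overlap would split this site. The next site lay 299 bp above, so joining of peaks up to 500 bp apart would merge the 2. Without the stretch, the Ihh window had 4 peaks with wild-type ICI, 2 with wild-type tamoxifen, 4 with mutant ICI, 2 with mutant tamoxifen, 1 with mutant vehicle and 0 with wild-type vehicle.

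The 60 kb interval, in which the place of Ihh is not fixed, held a single site, chr1:74947562-74947761, with a wild-type ICI peak alone. Above it, on the side toward Nhej1, chr1:75018324-75018557 was called in all 4 ligand lists. It lay in a stretch of 4 sites over 14.4 kb whose other members were each called in 1 list, with wild-type ICI at 2 and mutant ICI at 1. Toward the upper end of the window, chr1:75078696-75078978 was called in all 3 mutant libraries and had 0 wild-type peaks. The 2 remaining sites, between the lower stretch and the interval, were called with mutant ICI at the lower and wild-type tamoxifen at the upper, with edges 235 bp apart.

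Wnt4 had 25 of the 59 sites, none of them with a vehicle peak. Wild-type ICI had 9 peaks, wild-type tamoxifen 19, mutant ICI 17 and mutant tamoxifen 11, which were 4.02 (1.84 to 7.63), 6.02 (3.62 to 9.40), 4.39 (2.55 to 7.02) and 3.56 (1.78 to 6.37) times the genome densities. For wild-type tamoxifen, 0.762% of windows of the same length held as many peaks or more. The vehicle libraries had 0 peaks each, and at genome density they would have held 0.314 and 0.425, so a count of 0 is not low for these short lists.

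The Wnt4 interval held 6 sites, 3 of them called in all 4 ligand lists and lying within 6.56 kb at its lower end, where the forward-strand gene starts. These were chr4:136833044-136833288, chr4:136834607-136834837 and chr4:136839227-136839606. At the first, the 4 peaks began at 136833044 for wild-type tamoxifen, 136833056 and 136833057 for mutant tamoxifen and ICI, and 136833089 for wild-type ICI. The interval also held chr4:136836902-136837101 and chr4:136848648-136848847, each with a wild-type tamoxifen peak alone. Its last site, chr4:136854454-136854709, had both mutant ligand peaks and no wild-type peak.

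Outside the interval, 4 Wnt4 sites were called in all 4 ligand lists. Nearest was chr4:136862332-136862560, just above it on the side toward Cdc42. On the side toward Zbtb40, chr4:136784674-136784891 lay at -59.7 kb from the centre of the window. A further pair lay near the upper end, chr4:136949384-136949590 and a site close above it, in a stretch of 4 sites over 3.99 kb. Sites with every ligand peak but that of wild-type ICI numbered 3, and chr4:136888791-136889011 and chr4:136892506-136892709 were such a pair. Single-list sites numbered 12, of which 7 were called with wild-type tamoxifen, 4 with mutant ICI and 1 with wild-type ICI. Over the genome these lists gave 6153, 8153 and 4091 of 23194 single-list regions, and mutant tamoxifen 3295. Mutant tamoxifen had no site to itself, and its 11 Wnt4 sites all had a mutant ICI peak too, as did 85.7% of mutant tamoxifen regions in the genome.

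Bmp2 had 9 sites, the fewest of the 4 windows. Wild-type ICI had 3 peaks, wild-type tamoxifen 4, mutant ICI 7 and mutant tamoxifen 7, against 2.12, 2.99, 3.67 and 2.92 at genome density, and the intervals of all 4 ratios held 1. The vehicle lists gave 0 wild-type and 2 mutant peaks, against 0.297 and 0.402 at genome density. The ratio for mutant vehicle was 4.97 (0.602 to 18). A mutant ligand peak was present at all 9 sites, against 78.4% of regions. At 5 of them there was no wild-type ligand peak, against 29.0% of regions, and the reverse kind numbered 0, against 19.2%. With 9 sites these counts carry little weight.

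The 3 Bmp2 sites called in all 4 ligand lists were chr2:133347904-133348130 and chr2:133351371-133351827 below the gene's interval, and chr2:133378200-133378426 inside it. The last began 1200 bp above the rounded lower edge of the interval, and 202 bp from it was a mutant ICI peak alone, chr2:133377798-133377997. The wide second site also had a mutant vehicle peak. The other mutant vehicle site, chr2:133309744-133309966, had a mutant tamoxifen peak and no other. Above the gene, 3 sites lay within 5.53 kb. Mutant ICI was called at all 3, mutant tamoxifen at 2 and wild-type tamoxifen at 1. Among them chr2:133454859-133455070 had both mutant ligand peaks and no wild-type peak. A gap of 72952 bp without a site lay between these and the last site of the interval.

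**Figure D3:**
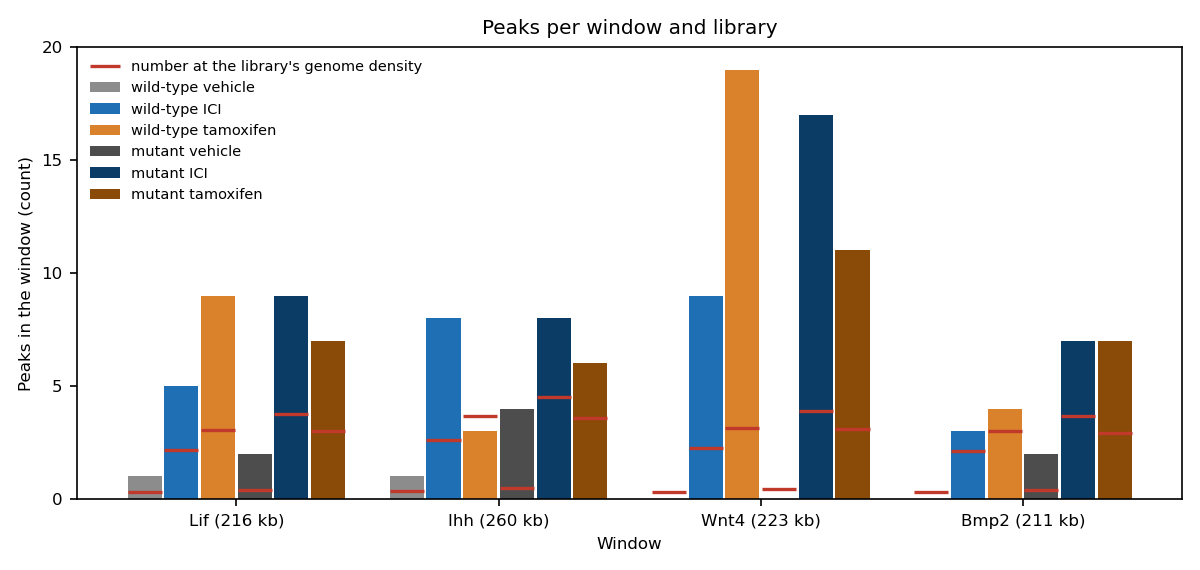
Number of peaks in each window by library (bars), with the number that the library's density over chromosomes 1 to 19 and X would give for the window's length (red lines). Wnt4 has the highest bars for all 4 ligand libraries, and wild-type tamoxifen around Ihh is the only ligand bar below its line.

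Where all 4 ligand lists called a site, the midpoints of their peaks mostly lay within 50 bp of each other. Over the 16 sites the midpoints of the 4 peaks ranged over 7 to 257 bp, with a median of 28 bp, the same as the median of 15136 such regions in the genome. The range was under 50 bp at 13 sites. Among the sites near Lif it was 7 to 36 bp. The wide sites were Ihh chr1:74844008-74844358 with 119 bp, Wnt4 chr4:136839227-136839606 with 180 bp and Bmp2 chr2:133351371-133351827 with 257 bp. In the last of these the wild-type ICI and wild-type tamoxifen peaks did not overlap each other and were joined through the mutant peaks between them. Since every peak was given a fixed width of 200 bp, such a site may hold more than 1 place of binding. Peaks had to overlap to be joined, so the joining rule itself limits these ranges. With an overlap of at least 100 bp, 14 sites were called in all 4 ligand lists.

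**Figure D4:**
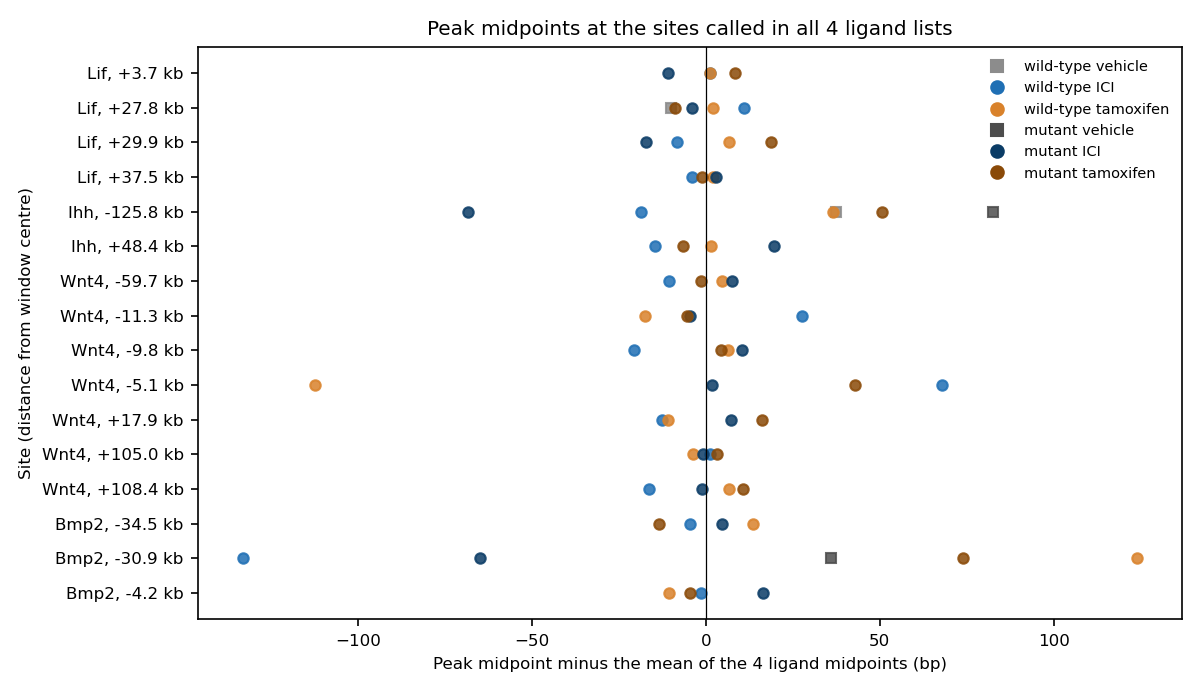
Midpoint of each library's peak at the 16 sites called in all 4 ligand lists, in bp from the mean of the 4 ligand midpoints; rows are sites, named by gene and distance from the window's centre, circles are ligand and squares vehicle libraries. Points lie close together at 13 sites and spread over 119 to 257 bp at the other 3.

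Neighbouring sites in the windows were 113 to 72952 bp apart, with a median of 6130 bp. The median was 5484 bp around Wnt4, 6547 bp around Lif, 8624 bp around Ihh and 12038 bp around Bmp2, against 11632 bp between merged regions on chromosomes 1 to 19 and X. Gaps that crossed a window edge were not counted, whereas those of the genome ran up to 10159164 bp, so the medians are not measured alike.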

How the data were processed

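The authors deposited 1 peak list per library, whose values are the start and end of each peak with no other score. Every peak was 200 bp wide, which was checked on all 6 lists. The build was mm9, and the tools HOMER 4.10.3, Bowtie2 2.1.0, bedtools 2.24.0, Picard and SAMtools were named without roles, per the submitters' processing notes. The sources used here do not give the read depth, nor the threshold or input library of the peak calling. Each of these sets how many peaks a list holds.

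Peaks were assigned to windows by midpoint and joined to sites with Python 3.11.15 (numpy 2.4.6, scipy 1.17.1), wherever they overlapped a growing site by at least 1 bp. Joining was run on simulated, well separated sites whose peaks all overlapped, which checks the code and not chained or close sites. On the real lists bedtools 2.31.1 gave the same 65146 regions, of which 0 differed. Coordinates count from 1. Genome densities used chromosomes 1 to 19 and X up to the last peak of any list, 2636 Mb in all. Shares have exact 95% binomial intervals, and densities exact Poisson ones. With 1 library per group, no test was made. The genes, classes and naming rule were chosen with earlier results of these data known, though the window edges were not set from the peaks. The rule named sites called in all 4 ligand lists, with a vehicle peak, inside the inner interval, or with both ligands of 1 genotype and neither of the other, and at most the 6 nearest the centre per class and window. Sites named beyond this rule, such as those called in 2 or 3 ligand lists and single peaks beside a named site, were picked after their values were seen, as were the stretches of neighbouring sites. The search for response elements in peaks and the list of other implantation genes needed mm9 sequence or gene models and were not used here. The alternatives tried were another overlap, joining of near peaks, shorter or longer windows, membership by any overlap, and a density over all chromosomes.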

Additional observations from a re-analysis of the deposited data

Results flagged for a closer look

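In the Lif and Wnt4 windows the order of the ligands was opposite in the genotypes. The number of ICI peaks minus that of tamoxifen peaks was -4 for the wild type and 2 for the mutant around Lif, and -10 for the wild type and 6 for the mutant around Wnt4. Each value is from 1 library per group, so the difference was not tested. The whole lists have the same pair of orders, so these windows follow them. Around Ihh the difference was 5 for the wild type and 2 for the mutant, and around Bmp2 -1 and 0.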

How the results depend on the processing

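No paired analysis was possible because each group has 1 library and the replicate numbers only name it. Under a 100 bp overlap, joining of peaks up to 500 bp apart, and membership by any overlap, the number of sites was 63, 53 and 59, within 1.5 times the reported 59, and all 10 shares of sites stayed within their reported intervals. The size of the windows mattered more. With 50 kb taken from each end there were 36 sites, the share with a mutant vehicle peak fell to 5.56%, and around Ihh the density relative to the genome became 0 for both vehicle lists and 0.451 for mutant tamoxifen, since the stretch at the lower end and the site near the upper end were then outside. The sites of mutant ligand lists alone then numbered 6 and those of wild-type ligand lists alone 10, the reverse of the reported 15 and 13, and a 100 bp overlap gave 16 of each. With 50 kb added there were 91 sites, and all shares and relative densities stayed within their reported intervals. Those intervals are wide, so this does not show that the readings held. The ratio of wild-type tamoxifen around Ihh was then 1.18. Some intervals that had held 1 then lay above it. They were those of wild-type ICI and mutant tamoxifen around Lif, mutant ICI and mutant tamoxifen around Ihh, and mutant tamoxifen around Bmp2. With windows 50 kb shorter at each end, the intervals of all 4 ligand libraries around Lif lay above 1. That of wild-type ICI around Ihh, at a ratio of 2.49, held 1 with these shorter windows. Around Wnt4 the intervals of all 4 ligand libraries lay above 1 with the shorter and the longer windows. All 24 relative densities stayed within their reported intervals with every chromosome of the lists as background. Depth is unknown, so a missing peak cannot be told apart from a weak one.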
